A study of Mus musculus with 22 samples.

Results

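The cells described here are 254 germinal center B cells of mouse spleen, taken as light-zone cells. They had UMIs of early signaling genes and none of Myc or of the division genes Top2a, Ccnb1 and Mcm5. They were chosen by transcript counts (unique molecular identifiers, UMIs) in single-cell RNA sequencing. A cell was taken when at least 2 of Nfkbid, Egr2, Egr3, Bcl2a1b and Icam1 had a UMI, Cd83 had 2 or more, and Myc, Top2a, Ccnb1 and Mcm5 had none. They are called set-positive cells here. They came from 6741 of 8873 cells, those left after cells under 500 genes or above 10% mitochondrial UMIs were dropped, with 95 in NP 1, 50 in NP 2 and 109 in OVA 1. The cells they are set against, called set-negative, met the same conditions on Cd83, Myc, Top2a, Ccnb1 and Mcm5 but had none of the 5 genes. There were 290 of these, with 116, 80 and 94 in the same libraries. Since these 10 genes chose the cells, their levels are given as a description and were not tested.

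The study sequenced single germinal center B cells from C57BL/6 mice, labelled as male and 8 weeks old, in 3 gene expression libraries with matching immunoglobulin libraries. In NP 1 and NP 2 the mice had received 100 µg of NP-KLH (a hapten on a carrier protein, at 23 NP per KLH), and B cells of the germinal center gate (B220+, Fas high, GL-7 high) that bound NP were sorted on day 13. In OVA 1 the antigen was 100 µg of ovalbumin, the gate took germinal center B cells whether or not they bound antigen, and the labels do not give its day. All mice also received 50% alum and 1 µg of lipopolysaccharide, so no library is free of adjuvant. The labels do not say how many mice stand behind a library, whether mice were pooled, or that the NP libraries came from separate mice. The p-values below speak of how the difference between groups within a library varied over the 3 libraries, which may be technical. For genes, edgeR also borrows information on spread from other genes, so small p-values do not rest on 3 libraries alone.

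In the light zone of the germinal center, B cells take up antigen from follicular dendritic cells and present it to follicular helper T cells. Antigen receptor signals raise the EGR and NR4A transcription factors within a short time, and receptor and CD40 signals together raise NF-kB target genes. Cells that receive enough help express Myc for a short period, which precedes growth and return to the dark zone for division. NF-kB is held in the cytoplasm by inhibitor proteins, among them those of Nfkbia and Nfkbie, while Nfkbid codes for a nuclear relative. These genes are NF-kB targets themselves and form a feedback loop.

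The set-positive cells were defined mostly by 2 of the 5 genes. Icam1, an adhesion molecule that binds LFA-1 on T cells, was detected in 209 of the 254 cells (82.3%), and Bcl2a1b, an anti-apoptotic member of the Bcl2 family, in 206 (81.1%). Nfkbid was detected in 108 (42.5%), Egr3 in 39 (15.4%) and Egr2 in 29 (11.4%). The pair of Bcl2a1b and Icam1 without the other genes was the most frequent combination, in 111 cells (43.7%). Egr2 or Egr3 was seen in 56 cells, and 198 cells (78.0%) had neither. The name of EGR-activated cells thus holds for a minority of them by detected UMIs, and the genes detected most often were Icam1 and Bcl2a1b. These 2 were also common in all passing cells. Icam1 was in 41.5%, 38.7% and 48.0% of those in NP 1, NP 2 and OVA 1, and Bcl2a1b in 36.0%, 36.9% and 44.4%. Egr3 was in 2.35%, 2.68% and 3.23% of all passing cells, and Egr2 in 2.42%, 2.62% and 2.22%.

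At the threshold of the rule, 183 cells had exactly 2 of the 5 genes, 59 had 3, 12 had 4 and 0 had all 5. Just outside it, 379 cells of the same kind had 1 of the 5. Cells just inside held 1085, 790 and 636 Cd83 UMIs per 1e6 UMIs (CPM) in NP 1, NP 2 and OVA 1, against 850, 680 and 572 CPM in cells just outside. On the side of Cd83, 49 set-positive cells had exactly 2 Cd83 UMIs, and 71 cells met all other conditions but had 1 Cd83 UMI. Wherever 3 values are given below without names, they stand for NP 1, NP 2 and OVA 1 in that order.

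Set-positive cells made up 3.65% (exact Clopper-Pearson 95% interval 2.97 to 4.45) of passing cells in NP 1, 2.85% (2.12 to 3.74) in NP 2 and 4.57% (3.77 to 5.49) in OVA 1. After each cell was thinned to 2500 UMIs the shares were 2.27%, 1.06% and 1.76%, and 262, 154 and 231 shallower cells were left out. The order of the libraries thus changed with depth, and no order is read from it. Of all cells with Cd83 at 2 or more UMIs and none of the 4 excluded genes, 27.0%, 22.9% and 30.9% were set-positive. These intervals cover counting error only.

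Summed light-zone genes stood above all passing cells in both groups, but so did a summed list of memory and naive B cell genes. The B cell markers Cd79a, Cd79b, Ms4a1 and Pax5 were detected in every library. The 16 light-zone genes of a marker list summed to 4035, 3357 and 3068 CPM in set-positive cells, against 2713, 2145 and 2165 CPM in set-negative cells and 1874, 1494 and 1884 CPM in all passing cells. The sum was higher still in cells of the same rule with a Myc UMI, described below, at 6089, 4673 and 4997 CPM. The 18 memory and naive B cell genes summed to 2599, 2744 and 2407 CPM in set-positive cells. They summed to 2608, 2795 and 2625 CPM in set-negative cells and 1870, 1992 and 1947 CPM in all passing cells. The 15 dark-zone genes summed to 1377, 1141 and 1091 CPM in set-positive cells and 1475, 1369 and 1191 CPM in set-negative cells, below the 2258, 2109 and 1770 CPM of all passing cells. That list includes division genes such as Mki67, Cdk1, Plk1 and Cenpf, and the rule left out cells with Top2a, Ccnb1 or Mcm5. The lower sum thus follows in part from the rule and is no separate support for the label. Other division genes were not absent: Mki67 had 88 UMIs in 56 set-positive cells and 89 UMIs in 64 set-negative cells, and Cenpa had 74 UMIs in 59 set-positive cells and 68 UMIs in 48 set-negative cells. Of the T cell markers, Cd3e, Cd3g and Cd4 were at 0 in set-positive and set-negative cells alike, while Cd3d had 3 UMIs in set-positive cells and 1 in set-negative cells. Lck made up most of that list, with 253 UMIs in 133 set-positive cells and 175 UMIs in 105 set-negative cells. The NK cell markers had 1 UMI in all. Myeloid transcripts sat in few cells: Lyz2 had 59 UMIs in 2 set-positive cells and 1 UMI in set-negative cells, and Fcer1g had 109 UMIs in 3 set-positive cells and 6 UMIs in 4 set-negative cells. The T cell list summed to 128 to 194 CPM in set-positive and 94.1 to 146 CPM in set-negative libraries, the myeloid list to 129 to 537 and 194 to 238 CPM. A few barcodes (11, 11 and 9) were shared by pairs of libraries, 1 of them with a set-positive cell in any pair.

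Set-positive cells had higher levels than set-negative cells of 6 of 26 NF-kB genes, 4 of 11 genes of the EGR and NR4A list and 18 of 36 Myc targets and ribosome biogenesis genes, and lower levels of Siglecg, Dok3, Cxcr4 and Klf2. The smallest adjusted p was that of Il4i1, with a log2 fold change of 1.41 ± 0.10. The rule left Myc at 0 UMIs in both groups. UMIs were summed per library and group and tested by edgeR's quasi-likelihood test in a model with a term for each library. Of 5537 genes tested, 158 (2.85%) passed a Benjamini-Hochberg adjusted p of 0.05, with 85 (1.54%) higher and 73 (1.32%) lower. The median log2 fold change of all genes was −0.004. Set-positive cells were deeper, with medians of 5253, 6805.5 and 7133 UMIs per cell against 4140, 5335 and 5168 in set-negative cells. With all cells first thinned to 2500 UMIs, 28 genes were higher and 2 lower, and 127 of 135 called genes still measured kept their direction. In all thinned results the rule was applied again to the thinned counts, so the groups were not the same cells. There were then 53, 17 and 38 set-positive and 147, 110 and 110 set-negative cells. The count was 47 without NP 1, 61 without OVA 1, 11 with DESeq2, 1 without the library block and, in an alternative chosen after seeing the data, 145 without cells with 3 or more UMIs of defining markers of other cell types.

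**Figure D1:**
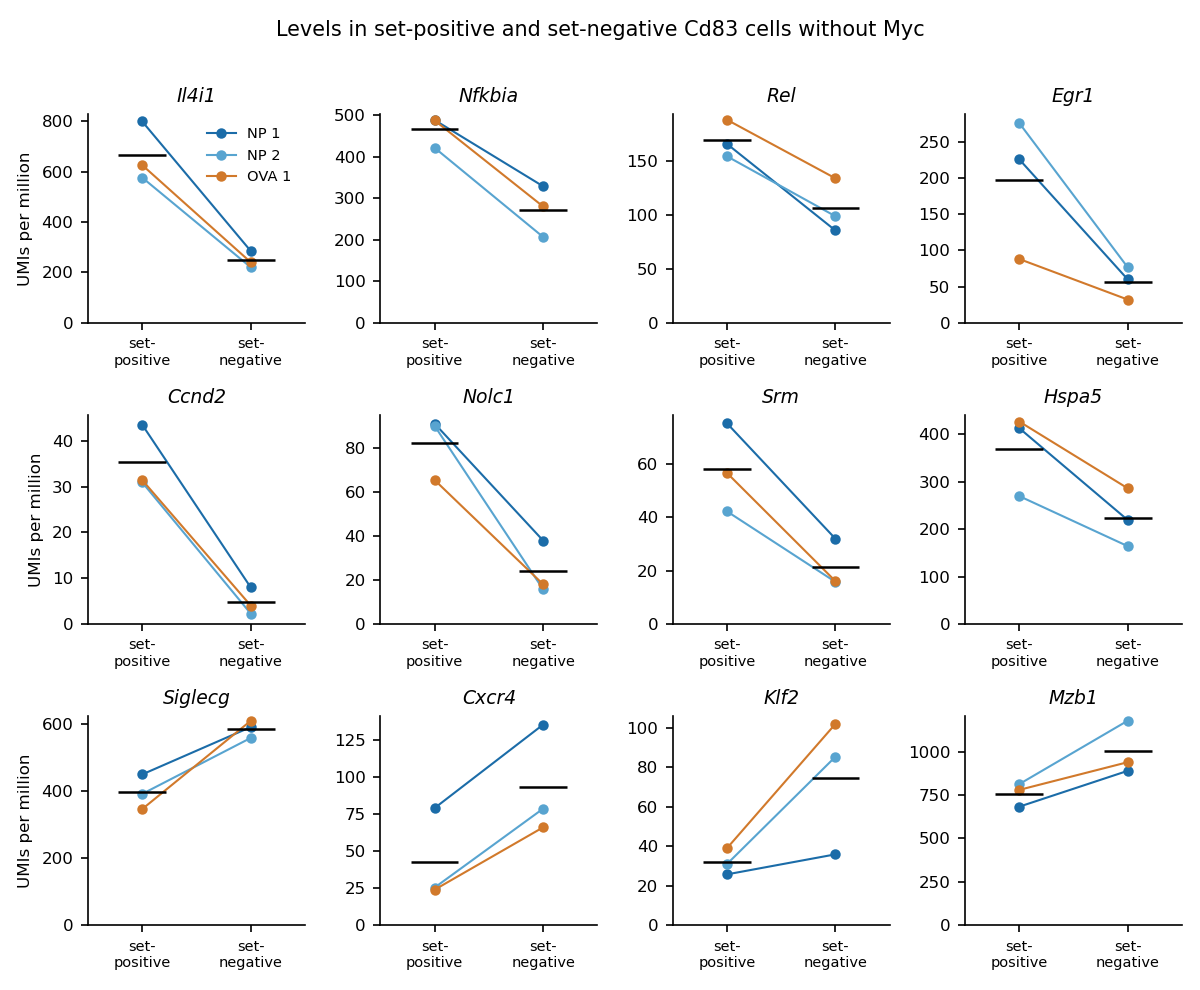
Levels of 12 genes in CPM (vertical axes, from 0) in set-positive cells (left) and set-negative cells (right); each point is the sum over one library, lines join the groups of a library, and black bars are means of 3 libraries. Il4i1, Nfkbia, Rel, Egr1, Ccnd2, Nolc1, Srm and Hspa5 were higher in set-positive cells in each library, and Siglecg, Cxcr4, Klf2 and Mzb1 were lower.

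The NF-kB genes were led by Il4i1, a secreted amino acid oxidase induced in activated B cells. It stood at 799, 576 and 626 CPM in set-positive cells, against 285, 220 and 240 CPM in set-negative cells. The lowest set-positive library lay well above the highest set-negative one. The log2 fold change was 1.41 ± 0.10 (SE, adjusted p = 2.53e-21, n = 3 libraries), and the gene was called under all 16 alternatives, thinning included. Nfkbia, which codes for the inhibitor IkB-alpha, had 489, 422 and 488 CPM in set-positive cells and 329, 207 and 280 CPM in set-negative cells. The groups did not overlap, and the log2 fold change was 0.76 ± 0.11 (adjusted p = 2.58e-07).

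The NF-kB subunit gene Rel had 166, 155 and 189 CPM in set-positive cells and 85.7, 98.9 and 134 CPM in set-negative cells (log2 fold change 0.66 ± 0.15, adjusted p = 0.00489). Nfkb2, which codes for the p100 precursor of the noncanonical pathway, had 129, 81.5 and 200 CPM in set-positive cells against 73.8, 45.0 and 130 CPM in set-negative cells (0.70 ± 0.17, adjusted p = 0.00607). Here the libraries of the groups overlapped, but within each library the set-positive cells were higher. Of 26 list members tested, 6 were higher and 0 lower, with a median log2 fold change of 0.29. The other 2 were Relb and Nfkbie, named after their values were seen. The subunit gene Nfkb1 did not pass, at 75.2, 67.5 and 66.6 CPM in set-positive cells against 69.8, 49.5 and 60.1 CPM in set-negative cells (0.19 ± 0.21, adjusted p = 0.767). Tnfaip3, the A20 feedback inhibitor, had 49 UMIs in set-positive cells against 19 in set-negative cells and did not pass (1.18 ± 0.40, adjusted p = 0.099).

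The letters of a kB site (GGGA, any 2 bases, then TTCC, searched on both strands) were looked for in the 250 bases before the transcription start, in RefSeq promoter windows of GRCm38.p6. They occurred in 4 of 95 windows (4.21%) of the genes higher in set-positive cells, those of Nfkbia, Tgif1 and Nfkb2, and in 0 of 75 windows of the lower genes. The share was 1.21% of all 32851 windows and 1.32% of the windows of tested genes. A window was found for 66 of the 85 higher and 56 of the 73 lower genes. Nfkbia and Nfkb2 are shown because they are feedback genes of the pathway that rose together, on the strand of the gene and with the matched letters in capitals.
Nfkbia, chr12:55492648-55492897, minus strand: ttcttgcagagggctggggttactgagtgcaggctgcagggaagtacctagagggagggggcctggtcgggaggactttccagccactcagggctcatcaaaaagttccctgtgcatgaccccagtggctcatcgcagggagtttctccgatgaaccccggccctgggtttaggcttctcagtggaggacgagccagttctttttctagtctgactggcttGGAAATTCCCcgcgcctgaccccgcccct
Nfkb2, chr19:46305445-46305694, plus strand: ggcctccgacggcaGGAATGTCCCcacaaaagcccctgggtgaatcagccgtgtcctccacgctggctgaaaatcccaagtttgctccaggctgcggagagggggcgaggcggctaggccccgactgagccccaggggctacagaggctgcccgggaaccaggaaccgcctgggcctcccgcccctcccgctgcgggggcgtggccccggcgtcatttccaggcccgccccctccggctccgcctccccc
The match lies 29 bases before the start in Nfkbia and 236 bases before it in the Nfkb2 window shown. A second Nfkb2 window, chr19:46305680-46305929, held GGGACTTTCC 225 bases before its own start. Both Nfkb2 windows are among the 4 counted above. The letters of an EGR site (GCGNGGGCG) were found in 12.6% of windows of higher genes and 10.7% of lower genes, against 8.59% of windows of tested genes. The letters of an AP-1 site (TGANTCA) were in 7.37% of windows of higher genes and 0% of lower genes, against 3.93% of tested genes, and those of an E-box (CACGTG) in 12.6% of higher and 5.33% of lower genes, against 9.34%. A match is a run of letters and shows no binding.

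Egr1, the EGR factor that the rule did not use, had 225, 276 and 88.0 CPM in set-positive cells, against 59.8, 76.5 and 32.0 CPM in set-negative cells. Every library was higher in set-positive cells, and the groups did not overlap (log2 fold change 1.77 ± 0.18, adjusted p = 3.08e-13). Of 11 members of the EGR and NR4A list tested, 4 were higher and 0 lower, with a median of 0.57. These were Egr1, its corepressor gene Nab2 (1.05 ± 0.32, adjusted p = 0.0446), Irf4, a factor of activated B cells and plasma cells (1.48 ± 0.36, adjusted p = 0.00709), and the phosphatase gene Dusp2 (0.57 ± 0.10, adjusted p = 6.27e-05). Cd69, an early activation marker, did not pass (0.16 ± 0.23, adjusted p = 0.819). Nr4a1 was too low for the test, with 20 UMIs in set-positive and 4 in set-negative cells. In the FOS and JUN list Ier2 (1.48 ± 0.26, adjusted p = 8.65e-05) and Junb (0.52 ± 0.12, adjusted p = 0.00215) were higher and the antiproliferative gene Btg2 was lower (−0.54 ± 0.14, adjusted p = 0.0168), among 12 tested, of which 6 had a positive fold change.

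Set-positive cells with and without Egr2 or Egr3 were also set against set-negative cells one by one. Of the FOS and JUN list, 4 of 10 tested genes were higher and 1 lower in the 56 cells with Egr2 or Egr3, and 0 of 12 were called in those with neither. Over all genes tested, 67 of 3835 were called with Egr2 or Egr3 and 61 of 5412 with neither. Egr1 stood at 611, 699 and 321 CPM in cells with Egr2 or Egr3. It stood at 79.1, 135 and 42.1 CPM in set-positive cells with neither, and at 59.8, 76.5 and 32.0 CPM in set-negative cells. Against set-negative cells, Egr1 was called in cells with Egr2 or Egr3 (log2 fold change 3.25, adjusted p = 2.08e-51) and was not called in cells with neither (0.55, adjusted p = 0.294). The same was found for Dusp2 (1.48, adjusted p = 1.83e-20, and 0.17, adjusted p = 0.539) and Ier2 (2.62, adjusted p = 7.11e-12, and 0.85, adjusted p = 0.23). Il4i1 was called in both, at 1.52 (adjusted p = 9.6e-19) with Egr2 or Egr3 and 1.39 (adjusted p = 1.78e-07) with neither, and so was Nfkbia, at 1.09 (adjusted p = 9.67e-09) and 0.64 (adjusted p = 0.00696). The adjusted p-values are those of edgeR's quasi-likelihood test, and the difference between the 2 kinds of set-positive cells was not itself tested.

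**Figure D2:**
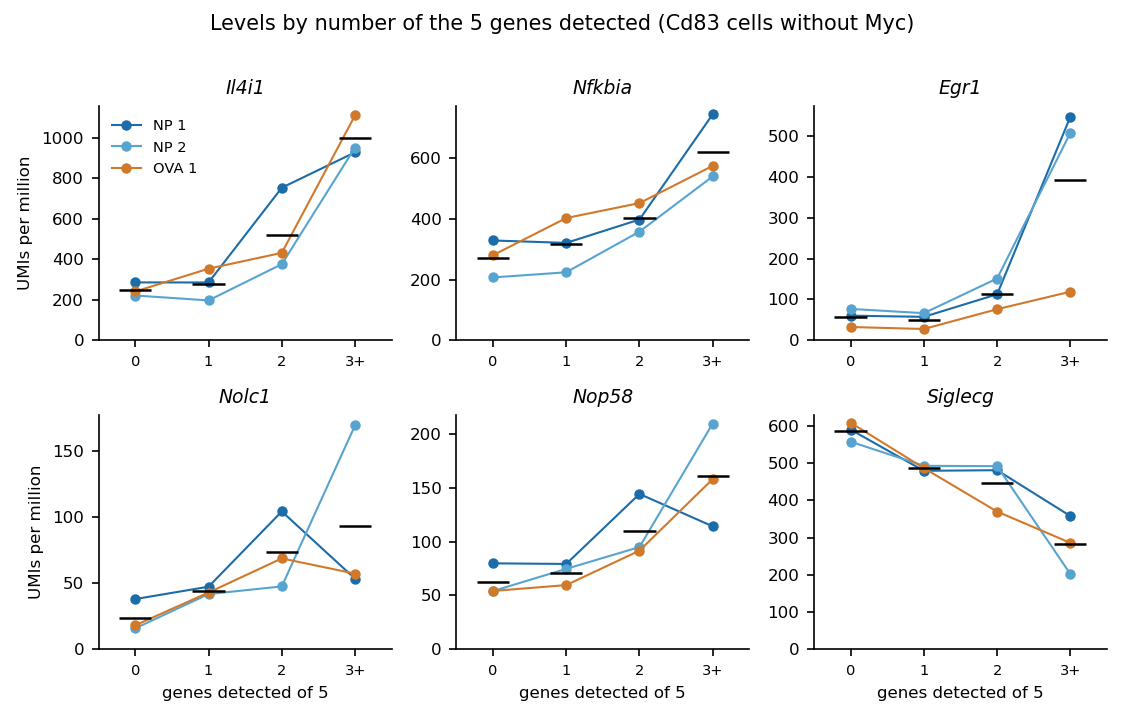
Levels of 6 genes in CPM (vertical axes, from 0) in cells with 2 or more Cd83 UMIs and none of Myc, Top2a, Ccnb1 and Mcm5, by how many of the 5 genes had a UMI (0, 1, 2, or 3 and more); points are libraries, joined by lines, and black bars are means of 3 libraries. Mean Il4i1 was 249, 278, 520 and 997 CPM across the steps, and mean Siglecg was 586, 486, 448 and 282 CPM.

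Levels by step of the rule are given as a description. With 0, 1, 2, and 3 or more of the 5 genes detected, Il4i1 averaged 249, 278, 520 and 997 CPM, and Nfkbia averaged 272, 316, 403 and 621 CPM. For Il4i1 the libraries differed: OVA 1 had 240, 353 and 431 CPM with 0, 1 and 2 genes, while NP 1 had 285, 285 and 754 CPM. Egr1 averaged 56.1, 50.0, 113 and 392 CPM, but the cells with 3 or more genes ranged between 119 CPM in OVA 1 and 548 CPM in NP 1. The nucleolar gene Nop58 averaged 62.6, 71.1, 110 and 161 CPM, and Siglecg averaged 586, 486, 448 and 282 CPM.

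Of 22 tested receptors and ligands of T cell help, 3 were higher and 0 lower. CD40, the receptor for the helper signal CD40L, had transcript levels of 174, 163 and 191 CPM for Cd40 in set-positive cells, against 144, 78.7 and 124 CPM in set-negative cells. The groups did not overlap (log2 fold change 0.58 ± 0.15, adjusted p = 0.0153). Il2rg, the shared cytokine receptor chain used by IL-21 and IL-4, rose by 0.47 ± 0.12 (adjusted p = 0.00891), and Tnfsf9, which codes for the ligand 4-1BBL, by 1.23 ± 0.27 (adjusted p = 0.00181). The costimulatory ligand gene Cd86 had 214, 228 and 131 CPM in set-positive cells and 169, 106 and 138 CPM in set-negative cells. It was higher in NP 1 and NP 2 only and did not pass (0.39 ± 0.15, adjusted p = 0.18). Of 16 genes of MHC class II presentation, 0 passed in either direction, with a median of 0.02.

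Of 15 light-zone genes tested, 7 were higher and 0 lower, with a median of 0.39. Beside Il4i1, Egr1, Nfkbia and Cd40 these were Ccnd2, Bcl2a1d and Fcer2a. Ccnd2, which codes for cyclin D2 of the G1 phase, had 43.5, 30.9 and 31.4 CPM in set-positive cells, against 7.97, 2.25 and 4.00 CPM in set-negative cells. These are 58 UMIs in set-positive and 7 in set-negative cells, and the groups lay far apart (log2 fold change 2.79 ± 0.49, adjusted p = 6.68e-05). Bcl2a1d rose by 1.38 ± 0.22 (adjusted p = 4.86e-06), but it is nearly identical to Bcl2a1b of the rule, so reads may be split between them and its value is uncertain. The death agonist gene Bid was also higher (0.61 ± 0.14, adjusted p = 0.00365).

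Genes of ribosome biogenesis and other Myc targets were higher in many cases. Of 39 listed, 36 could be tested; 18 were higher and 0 lower, 35 had a positive fold change, and the median was 0.54. Nolc1, a nucleolar chaperone gene, had 91.0, 90.0 and 65.4 CPM in set-positive cells, against 37.9, 15.7 and 18.0 CPM in set-negative cells (1.73 ± 0.26, adjusted p = 1.65e-06). Srm, which makes the polyamine spermidine, had 75.2, 42.2 and 56.6 CPM in set-positive cells against 31.9, 15.7 and 16.0 CPM in set-negative cells (1.44 ± 0.29, adjusted p = 0.00062). In neither gene did the groups overlap. Nop58, a core protein of small nucleolar ribonucleoproteins, rose by 0.99 ± 0.19 (adjusted p = 0.00019), and Mrto4, a ribosome assembly factor, by 1.18 ± 0.24 (adjusted p = 0.000945).

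For comparison of levels, all passing cells, which include dividing cells, held 97.7, 79.5 and 73.6 CPM of Nolc1 and 152, 153 and 147 CPM of Nop58, while set-positive cells held 136, 135 and 111 CPM of Nop58 and set-negative cells 79.7, 54.0 and 54.1 CPM. The number of list genes called was 7 without NP 1, 7 without OVA 1, 3 of 29 after thinning, and 0 with DESeq2 or without the library block. The median stayed between 0.47 and 0.57 across the 16 alternatives. Cytosolic ribosomal proteins did not move with it, with 0 of 82 called and a median of −0.06.

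**Figure D3:**
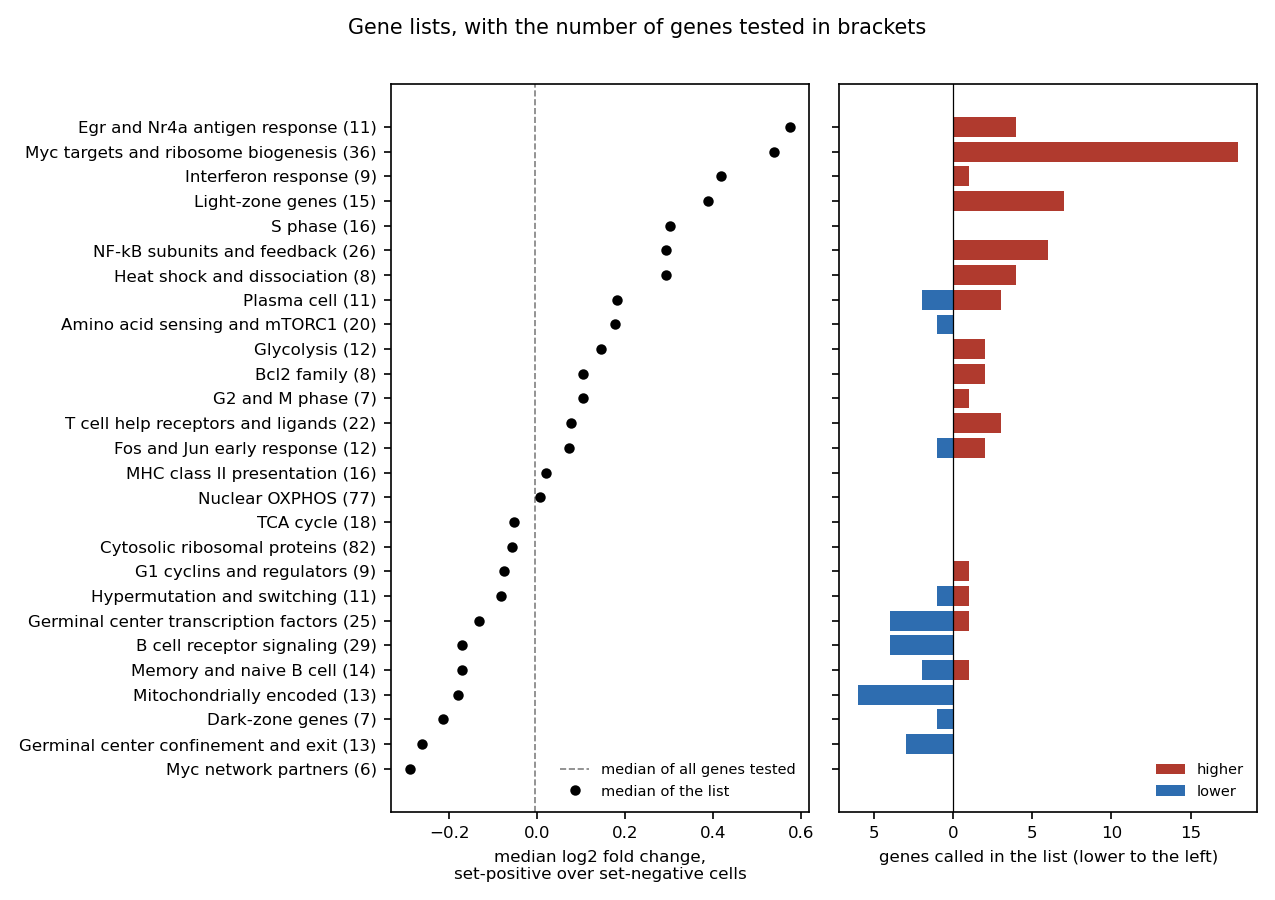
Gene lists with at least 6 genes tested, with the number tested in brackets. Left, the median log2 fold change of set-positive over set-negative cells, with a dashed line at the median of all genes tested; right, the number of genes called higher (red) or lower (blue, to the left of 0). The Myc target list had 18 of 36 genes higher and 0 lower, and the mitochondrially encoded list had 6 of 13 lower.

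The series is titled for a role of oxidative phosphorylation in positive selection, so genes of metabolism were looked at as well. Of 77 nuclear-encoded genes of oxidative phosphorylation 0 were called, with a median of 0.01, and of 18 genes of the TCA cycle 0 were called, with a median of −0.05. In edgeR's quasi-likelihood test 753 of all genes had an unadjusted p under 0.05. After adjustment edgeR called 158 of all 5537 genes (2.85%). DESeq2 also called 0 genes in both lists, but it called only 11 of 5537 genes in all, so its 0 adds little. Among 12 glycolysis genes Ldha (0.49 ± 0.10, adjusted p = 0.00121) and Pgam1 (0.54 ± 0.15, adjusted p = 0.0213) were higher. Of 13 mitochondrially encoded genes 6 were lower, with mt-Nd4 at −0.36 ± 0.08 (adjusted p = 0.00224). The share of mitochondrial UMIs moved with them, at medians of 5.75%, 4.21% and 3.18% per cell in set-positive cells and 6.58%, 4.75% and 3.40% in set-negative cells. None of the 13 passed in cells with at most 5% mitochondrial UMIs, in cells of 4000 to 12000 UMIs, after thinning, or without NP 1, and 9 passed without OVA 1. The part of cell quality in this result was not tested further.

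The endoplasmic reticulum chaperone gene Hspa5 had 413, 270 and 427 CPM in set-positive cells, against 219, 164 and 286 CPM in set-negative cells (0.71 ± 0.11, adjusted p = 7.04e-06), and Herpud1, of the same stress response, rose by 0.65 ± 0.12 (adjusted p = 0.000115). Both are on the plasma cell list, of which 3 of 11 tested were higher, with Irf4, and 2 were lower. The lower 2 were Mzb1 (−0.40 ± 0.08, adjusted p = 0.000369) and Jchain (−0.33 ± 0.09, adjusted p = 0.0273), which serve antibody secretion. The plasma cell regulator Prdm1 was at 0 in set-positive cells of NP 1 and NP 2. Heat shock genes, which also respond to cell dissociation, were higher in 4 of 8, with Hsp90ab1 at 0.35 ± 0.06 (adjusted p = 0.000115). Their 12 genes summed to 5040, 3987 and 4625 CPM in set-positive and 4129, 3269 and 3488 CPM in set-negative cells. Both groups lay below all passing cells, at 6190, 5436 and 5457 CPM. Several immediate-early genes respond to dissociation as well, and its part in them was not tested.

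Of 29 tested genes of B cell receptor signaling, 4 were lower and 0 higher, with a median of −0.17. Siglecg, an inhibitory receptor of B cells, had 449, 391 and 346 CPM in set-positive cells, against 590, 558 and 609 CPM in set-negative cells. Every set-positive library lay below every set-negative one (log2 fold change −0.60 ± 0.10, adjusted p = 6.33e-06). The adaptor gene Dok3, a negative regulator of receptor signaling, had 200, 124 and 192 CPM in set-positive cells against 291, 227 and 272 CPM in set-negative cells (−0.61 ± 0.13, adjusted p = 0.000982). The receptor chain gene Cd79b (−0.22 ± 0.06, adjusted p = 0.0199) and Malt1, which by contrast transmits the signal to NF-kB (−0.73 ± 0.21, adjusted p = 0.0343), were also lower. Of germinal center transcription factors, Ets1, Bach2, Pou2af1 and Ebf1 were lower and Irf4 higher among 25 tested. Bcl6, the master factor of the germinal center, had 133, 92.8 and 85.5 CPM in set-positive cells and 138, 98.9 and 96.1 CPM in set-negative cells and did not pass (−0.12 ± 0.17, adjusted p = 0.82).

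Of 13 genes of confinement and exit, 3 were lower and 0 higher, and 4 had a positive fold change. Cxcr4, the chemokine receptor that draws cells to the dark zone, had 79.1, 25.3 and 23.9 CPM in set-positive cells, against 136, 78.7 and 66.1 CPM in set-negative cells. NP 1 was the highest library in both groups, and within each library the set-positive cells were lower (−1.15 ± 0.22, adjusted p = 0.000193). Klf2, which sustains the exit receptor S1pr1 in lymphocytes, had 25.7, 30.9 and 39.0 CPM in set-positive cells and 35.9, 85.4 and 102 CPM in set-negative cells (−1.22 ± 0.24, adjusted p = 0.000478), with overlap between OVA 1 and NP 1. Few cells held it: 55 UMIs lay in 28 of 254 set-positive cells and 107 UMIs in 34 of 290 set-negative cells. The share of cells with a Klf2 UMI was thus similar in both groups. The third gene, Vim, was lower in NP 2 and OVA 1 but not in NP 1, at 93.0, 92.8 and 117 CPM in set-positive and 85.7, 166 and 252 CPM in set-negative cells, and its log2 fold change of −0.75 became 0.0007 after thinning.

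Outside the lists, the further genes of largest rise were Rara, Gart, Sdhaf1, Mphosph10 and Ltv1, with log2 fold changes of 1.43, 1.25, 1.24, 1.22 and 1.22. Gart makes purines, and Mphosph10 and Ltv1 serve the maturation of the small ribosomal subunit. Beside Klf2 and Cxcr4, the largest falls were in Crkl, Nbeal1, Abca3, Uck1 and Abtb1, at −1.40, −1.34, −1.25, −1.22 and −1.18, then Man1b1, Uap1 and Zfp512 at −1.15, −1.09 and −1.03. These are genes of few counts, with Crkl at 19 UMIs in set-positive cells and 43 in set-negative cells. Tsc22d3, a glucocorticoid-induced gene, was lower by −0.89 ± 0.17 (adjusted p = 0.00035), and in the remaining lists Cks2, Apex1, Fcer2a and Hspa9 were called higher and Mbd4 lower. Of 16 S phase genes 0 were called, but 14 had a positive fold change, with a median of 0.30.

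Set-positive cells without Myc were next set against the 86 cells that met the same rule but had at least 1 Myc UMI (20, 17 and 49 cells). A cell with no Myc UMI may still express Myc below this depth. The groups were not matched on the rule genes. Cd83 stood at 1139, 914 and 716 CPM without Myc and at 1518, 1420 and 1441 CPM with it. At least 3 of the 5 genes were detected in 25 of 95, 16 of 50 and 30 of 109 cells without Myc. With Myc they were detected in 13 of 20, 9 of 17 and 19 of 49 cells. The part of this in the differences below was not tested. Cells without Myc had lower levels of 7 of 25 NF-kB genes, Nfkbia among them, and of Batf, Bcl2l1 and Nr4a1, and higher levels of Bcl6. Of 4460 genes tested by edgeR's quasi-likelihood test, 35 (0.785%) passed, 30 (0.673%) lower and 5 (0.112%) higher in cells without Myc. Median depth per cell was 5253, 6805.5 and 7133 UMIs in cells without Myc and 5656.5, 7818 and 6930 in cells with it. The call count was 0 without NP 2, where 316 genes had an unadjusted p under 0.05, 15 without NP 1, 5 with DESeq2 and 1 after thinning. All 35 genes kept their direction without NP 1 and without NP 2.

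**Figure D4:**
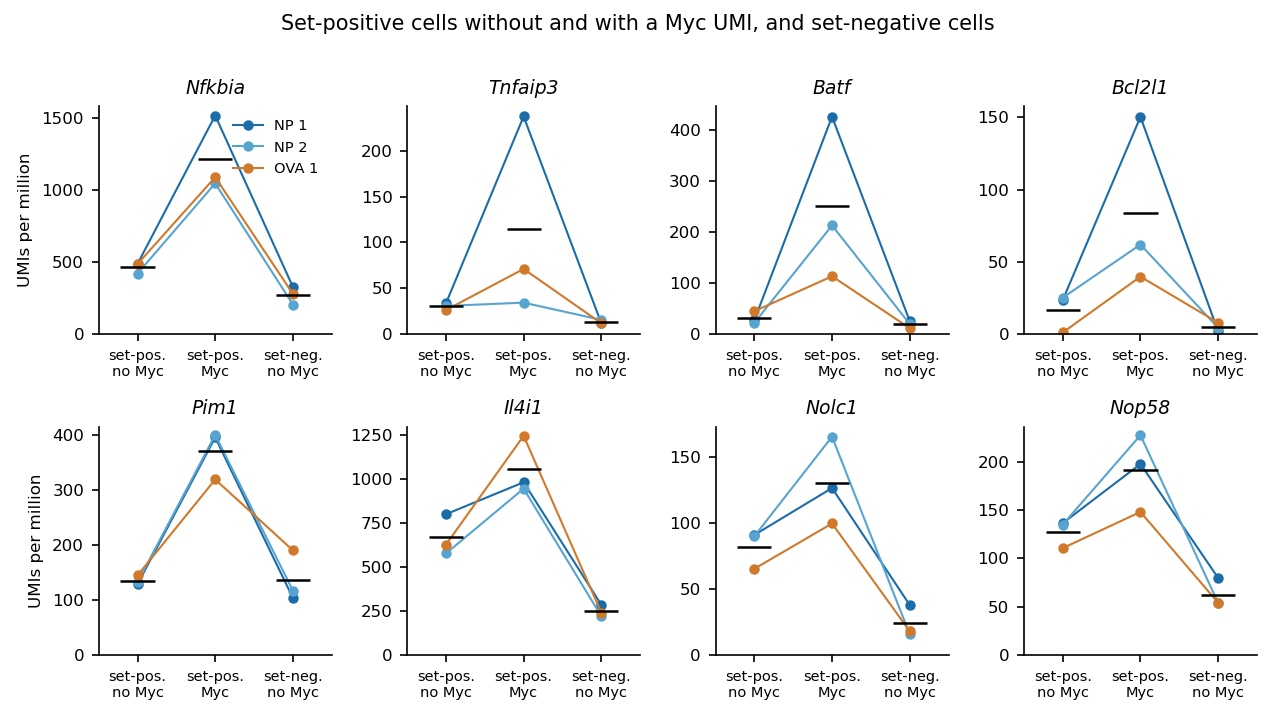
Levels of 8 genes in CPM (vertical axes, from 0) in set-positive cells without Myc (left), set-positive cells with a Myc UMI (middle) and set-negative cells without Myc (right); points are libraries, joined by lines, and black bars are means of 3 libraries. Nfkbia averaged 466, 1219 and 272 CPM in this order, and Pim1 averaged 135, 371 and 137 CPM.

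Nfkbia had 489, 422 and 488 CPM in set-positive cells without Myc and 1518, 1048 and 1090.5 CPM in those with Myc. The groups were far apart (log2 fold change −1.35 ± 0.14, adjusted p = 1.74e-18). Tnfaip3 differed by −1.79 ± 0.31 (adjusted p = 3.49e-06), though its levels with Myc were uneven, at 237, 34.5 and 71.2 CPM, against 33.6, 30.9 and 26.4 CPM without it. Of 25 NF-kB genes 7 were lower and 0 higher without Myc, with a median of −0.34. Il4i1 was among them (−0.68 ± 0.14, adjusted p = 0.000236), against 1.41 ± 0.10 over set-negative cells. Of 14 light-zone genes tested, 5 were lower without Myc and 0 higher, with a median of −0.51. Nfkbia, Tnfaip3 and Il4i1 stand on both lists.

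Larger differences lay in activation and survival genes. Batf, an AP-1 factor, had 27.7, 22.5 and 45.2 CPM in set-positive cells without Myc and 427, 214 and 114 CPM in those with Myc (−2.63 ± 0.25, adjusted p = 1.58e-21). Bcl2l1, which codes for the survival protein Bcl-xL, had 23.7, 25.3 and 1.26 CPM without Myc and 150, 62.0 and 39.9 CPM with it (−2.52 ± 0.41, adjusted p = 4.79e-07). Nr4a1, a reporter of antigen receptor signals, had 15.8, 8.43 and 11.3 CPM without Myc and 63.3, 55.1 and 88.3 CPM with it (−2.59 ± 0.41, adjusted p = 2.58e-07). Each of these groups stood apart without overlap. The kinase gene Pim1 (−1.39 ± 0.19), the cytokine signal transducer gene Stat5a (−1.81 ± 0.40), the calcium channel gene Orai1 (−1.58 ± 0.44) and Tagap (−1.49 ± 0.30) were lower too, with adjusted p of 1.6e-10, 0.00137, 0.044 and 0.000195.

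Bcl6 had 133, 92.8 and 85.5 CPM in set-positive cells without Myc and 39.5, 55.1 and 39.9 CPM in those with Myc (1.17 ± 0.31, adjusted p = 0.0192). It was thus higher without Myc in each library, and Cst3 (1.15 ± 0.22, adjusted p = 0.000121) and 2610035D17Rik (0.83 ± 0.23, adjusted p = 0.0419) were called the same way. Cst3 stands on the myeloid list, which summed to 398, 129 and 537 CPM without Myc and 103, 117 and 140 CPM with it. Without cells with 3 or more UMIs of defining markers of other types, Cst3 was no longer called (0.59, adjusted p = 0.336). Egr1 did not pass, at 225, 276 and 88.0 CPM without Myc and 229, 365 and 108 CPM with it (−0.24 ± 0.20, adjusted p = 0.848). Other genes of the EGR and NR4A list did differ. Of 11 tested, 5 were lower without Myc (Nr4a1, Dusp2, Cd69, Tagap and Rilpl2) and 0 higher, against 0.673% lower over all genes tested. The list had 10 negative fold changes and a median of −0.73. Of 36 Myc target genes 0 were called, but 33 were lower without Myc, with a median of −0.32. Nolc1 had 91.0, 90.0 and 65.4 CPM without Myc and 127, 165 and 99.7 CPM with it (−0.64 ± 0.25, adjusted p = 0.302).

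The difference between set-positive and set-negative cells was tested for a further difference between OVA 1 and the NP libraries. By edgeR's quasi-likelihood test only Gm42418, 1 gene of 5537 (0.0181%), passed, while 214 had an unadjusted p under 0.05. With 1 OVA library and a different gate, antigen and gate cannot be told apart, and the test has 1 residual degree of freedom.

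Receptor features of set-positive and set-negative cells were compared within each library, and 3 libraries were too few to show a difference. The contig tables gave a productive heavy chain for 64, 47 and 97 set-positive cells. Class-switched receptors made up 48.4% (exact interval 35.8 to 61.3), 63.8% (48.5 to 77.3) and 45.4% (35.2 to 55.8) of set-positive cells, against 53.0% (40.3 to 65.4), 56.5% (43.3 to 69.0) and 39.2% (28.0 to 51.2) of set-negative cells. The means were 52.5% ± 9.90 and 49.6% ± 9.14 (SD, n = 3), with an exact permutation p of 0.5 over the libraries. IGHV1-72, the V gene of canonical anti-NP antibodies in this strain, was used by 56.3%, 59.6% and 5.15% of set-positive cells and 59.7%, 57.1% and 4.00% of set-negative cells (exact permutation p = 1.0). Lambda light chains were less frequent in set-positive cells in 3 of 3 libraries. They made up 71.9%, 70.2% and 4.17% of set-positive cells and 78.5%, 72.6% and 6.76% of set-negative cells. The mean difference within a library was −3.85 ± 2.37 percentage points (SD, n = 3). The exact permutation p was 0.25, the smallest that 3 libraries allow, so no such comparison can reach 0.05.

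Set-positive cells were spread over many clones, taken as cells of 1 library that share heavy-chain V gene, J gene and CDR3. The 208 cells with a heavy chain fell into 198 clones, of which 190 held 1 set-positive cell. Of these clones 81 had 2 or more cells of any kind, 16 also held set-negative cells and 7 held Myc-positive counterparts. The most set-positive cells in a clone were 3, in 2 clones of OVA 1. Their CDR3 sequences (heavy-chain locus, chromosome 12) are shown with that of an NP 2 clone, since the sisters of set-positive cells can be traced by them.
OVA 1, IGHV1-72 with IGHJ2: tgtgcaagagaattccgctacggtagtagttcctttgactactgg
OVA 1, IGHV1-76 with IGHJ1: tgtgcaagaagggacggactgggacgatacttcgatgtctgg
NP 2, IGHV1-72 with IGHJ2: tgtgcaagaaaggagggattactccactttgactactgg
The first clone had 39 cells, all IgG2b where a class was read, of which 3 were set-positive and 0 set-negative. The second had 12 cells, of which 3 were set-positive and 1 set-negative. The NP 2 clone had 13 cells of 4 classes, of which 2 were set-positive. Most cells of each clone were thus in neither group.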

How the data were processed

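UMIs had been counted per gene and cell in 3 libraries. The authors deposited raw UMI counts, which were made with Cell Ranger against mm10, per the submitters' processing notes. The deposited contig tables of the same libraries gave V, J, class and CDR3. Bulk heavy-chain libraries were not analysed here. The members and gene lists were chosen with earlier results of these data known.

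Counts were summed per library and group and tested with edgeR 4.0.16 in R 4.3.3 (quasi-likelihood test, TMM, filterByExpr, library as a block, since both groups come from each library), with Benjamini-Hochberg adjustment over all genes tested at 0.05. The 10 genes of the rule and 225 immunoglobulin genes were left out. DESeq2 1.42.0 was an alternative. Errors of fold changes are standard errors. Total UMIs per library were 505599, 355693 and 795603 in set-positive cells, 501583, 444720 and 499414 in set-negative cells, and 126454, 145075 and 351208 in Myc-positive counterparts. Set tests were not run.

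Named genes were the 15 largest rises and 10 largest falls called in the same direction in each library with at least 30 UMIs, up to 4 called genes of each list, a fixed set of signaling genes, and the 5 largest rises and 8 largest falls against Myc-positive cells. Other genes named were chosen after their values were seen. No doublet caller was run; cells with exactly 1 productive heavy chain were an alternative. The other alternatives were other size factors, no low-count filter, no block, each library left out, thinning to 2500 UMIs, a window of 4000 to 12000 UMIs, at most 5% mitochondrial UMIs, removal of cells with markers of other types, and stricter or split rules. Scripts were tested on simulated data. A few genes are not reported here.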

Additional observations from a re-analysis of the deposited data

Results flagged for a closer look

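Gm42418 was the 1 gene whose difference between set-positive and set-negative cells itself differed between OVA 1 and the NP libraries, at −0.57 ± 0.07 on the log2 scale, OVA minus NP (edgeR's quasi-likelihood test, adjusted p = 0.0276). It had 4951, 9112 and 6815 CPM in set-positive cells of NP 1, NP 2 and OVA 1, against 4492, 8444 and 9595 CPM in set-negative cells. It was thus higher in set-positive cells in both NP libraries and lower in OVA 1.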

How the results depend on the processing

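Of 158 genes called between set-positive and set-negative cells, the count was 11 with DESeq2 (8 higher, 3 lower), 1 with no replicate block, 47 to 111 with a library left out, 30 after thinning (28 higher, 2 lower), 101 in the UMI window, 45 at 5% mitochondrial UMIs, 92 with 1 heavy chain, 23 without cells with markers of other types, and 67 and 61 for set-positive cells with and without Egr2 or Egr3. Against Myc-positive counterparts, 35 calls became 5 with DESeq2, 4 with no replicate block, 1 after thinning, 18 in the window, 1 without cells with markers of other types and 0 to 49 with a library left out. The interaction gave 6 genes with no filter. Shares of passing cells after thinning were 2.27%, 1.06% and 1.76%.

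Single genes of the first comparison kept their direction and call in 585 values, kept the direction but lost the call in 443, became called in 3 and changed sign in 8. In the second, 69 values kept both and 58 kept the direction but lost the call. Sign changes were Bcl6 (0.002 with 3 of 5 genes, 0.42 without markers of other types), Cd69 (−0.12 with neither Egr2 nor Egr3, and −0.12 to 0.49 with a library left out), Cd86 (−0.091 with Egr2 or Egr3), Nfkb1 (−0.046 with 1 heavy chain, −0.55 with Egr2 or Egr3) and Vim (0.0007 after thinning). The causes were not tested. Low counts limit Nr4a1 and Bcl2l1, which could not be tested against set-negative cells.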
